A study of Mus musculus with 14 samples.

Results

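The collagen genes of the mouse were examined in chromatin immunoprecipitation and sequencing (ChIP-seq) peak lists for BMI1 and H2AK119ub from cardiac cells. Members were the protein-coding genes of the RefSeq annotation of GRCm38 whose symbol is Col, a number, a and a number, which gave 44 of the 21887 protein-coding genes placed on chromosomes. A collagen is built of polypeptide chains that wind into a triple helix, and each gene encodes a chain of a given collagen type. Fibrillar collagens carry the tension of connective tissue, network collagens form basement membranes and other sheets, and further types decorate fibrils, span the plasma membrane or anchor epithelia. In the heart, fibroblasts make most of the fibrillar collagen, and its accumulation is known as fibrosis. BMI1 belongs to the chromatin regulator Polycomb repressive complex 1, and H2AK119ub is the ubiquitin mark that complexes of this kind attach to a lysine of histone H2A. Polycomb is best known at CpG-rich promoters of silent developmental genes.

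The Damage groups came from C57BL/6 mice of 6 to 8 weeks that received 1 intraperitoneal dose of paraquat (20 mg/kg), a herbicide that generates superoxide. The Homeostasis groups came from mice of the same strain and age that received PBS. In both, cells positive for the surface antigen Sca1 and negative for the leukocyte antigen CD45 were enriched from the heart on magnetic columns, and each of the 4 groups (Damage BMI1, Damage H2AK119ub, Homeostasis BMI1 and Homeostasis H2AK119ub) had 3 libraries. The labels also describe culture at 3% oxygen, without stating if the immunoprecipitated cells went through it, how long after paraquat they were taken, or if each replicate was another mouse. The p-values below therefore reflect the spread among these libraries, and part of it may be technical.

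The 6 Damage lists held 19 to 68 peaks each and 217 in all, and the 6 Homeostasis lists held 2000 to 13487 each and 39615 in all. The lists give positions only. Read depth is unknown, and a gene's peak number is not scaled for the length of the list. A gene was counted for a library when 1 or more of its peaks overlapped the gene or the 5 kb before or after it. Peaks report no expression, so the labelled cell type could not be checked with markers. As a description, Ly6a, which encodes the Sca1 antigen, and Ptprc, which encodes CD45, had a peak in 0 of the 12 lists. Of the fibroblast genes Pdgfra had a peak in 6 Homeostasis lists and Tcf21 in 1, of the endothelial genes Pecam1 in 4 and Cdh5 in 1, and of the cardiomyocyte genes Myh6 in 1 and Tnnt2 in 0.

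After paraquat no collagen gene held a peak. The number of collagen genes with a peak was 0 in each of the 3 Damage BMI1 libraries, against 6, 15 and 7 of 44 in the Homeostasis BMI1 libraries. It was 0 in each of the 3 Damage H2AK119ub libraries, against 3, 24 and 13 in the Homeostasis H2AK119ub libraries. Every Damage list therefore lay below every Homeostasis list of its antibody. The means were 0 genes per Damage library for both antibodies, 9.33 ± 4.93 genes per Homeostasis BMI1 library and 13.3 ± 10.5 per Homeostasis H2AK119ub library (SD, n = 3 libraries). Over all protein-coding genes, 0.283% had a peak in any Damage list and 19.3% in any Homeostasis list, so absence after damage was the usual state of a gene.

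**Figure D1:**
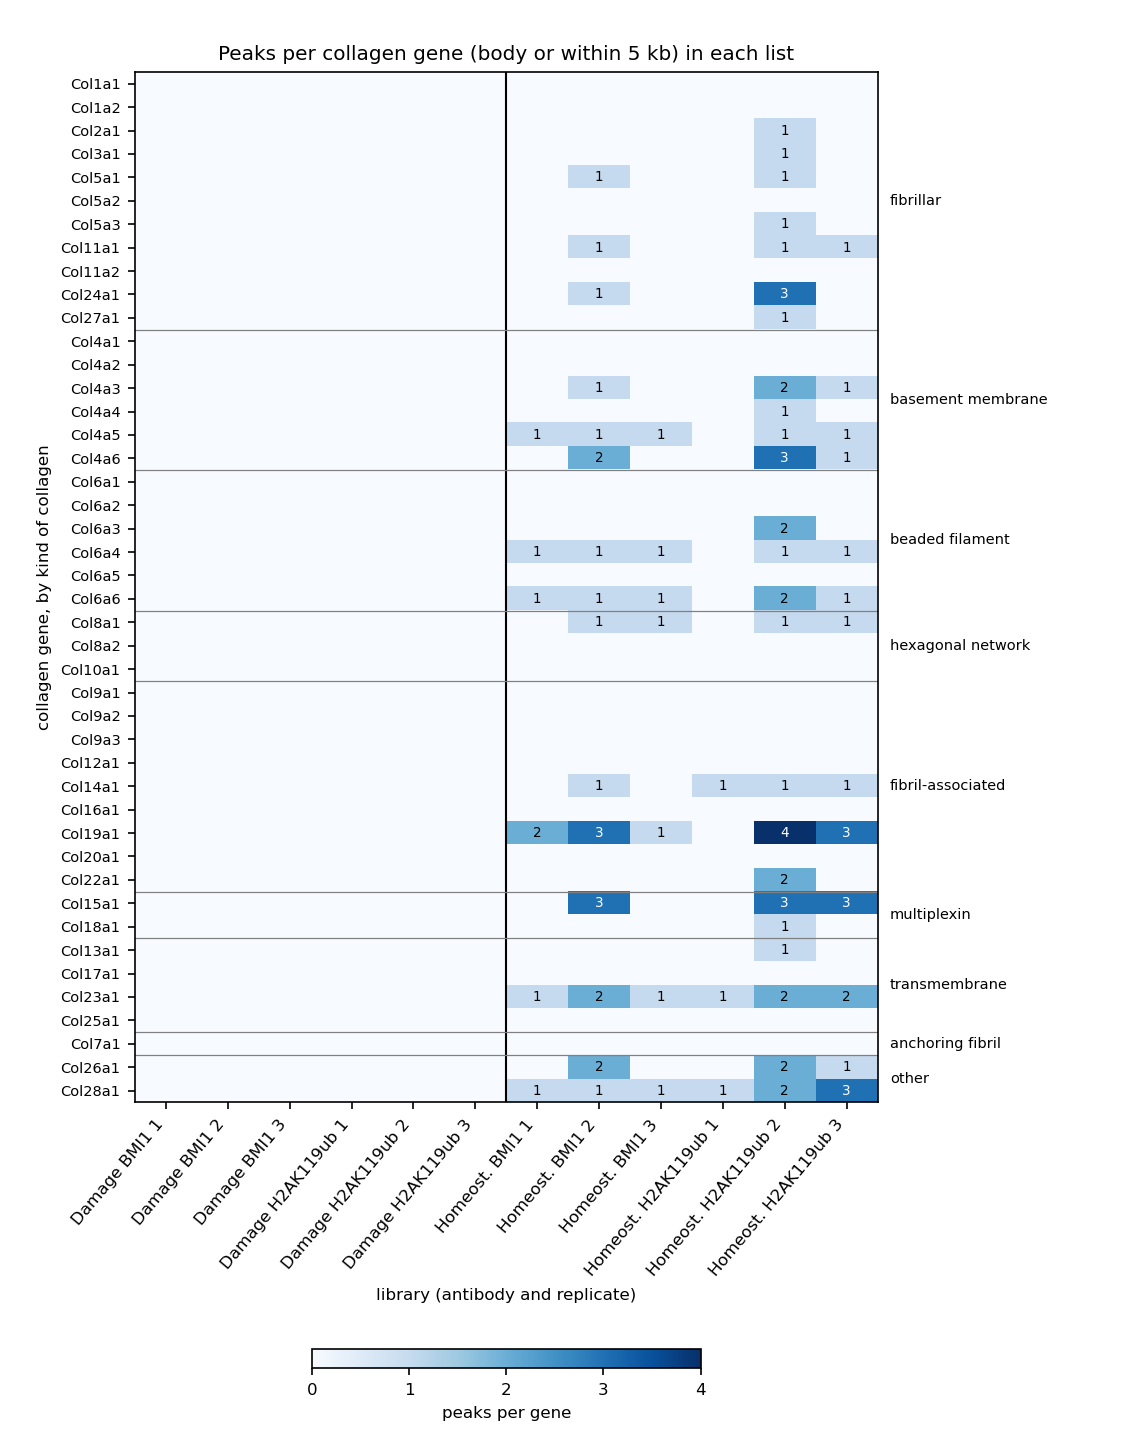
Number of peaks in each of 44 collagen genes (rows, grouped by kind of collagen) in each of 12 libraries (columns), with the 6 Damage lists left of the black line and the 6 Homeostasis lists right of it; empty cells hold 0 peaks. All Damage cells are empty, and Col23a1 and Col28a1 are the 2 genes with a peak in each of the 6 Homeostasis lists.

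The Damage lists are too short to show whether collagen genes lost more than other genes. Collagen genes held 0 of the 217 Damage peaks, which allows a share of up to 1.38% (3 counts of the total, counting error only). They held 99 of the 39615 Homeostasis peaks, a share of 0.25% (exact 95% binomial interval 0.203 to 0.304%). At that share the Damage lists would hold 0.542 collagen peaks in all. A lower share was therefore not detectable with lists this short, and a higher one only above the limit of 1.38% (1.69% by the exact 95% interval).

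A gene's peak number was then compared between Damage and Homeostasis by an exact permutation test over libraries, two-sided, with treatment permuted within antibody (400 arrangements, smallest p 0.005). It was run on the 4247 protein-coding genes with a peak in 1 or more of the 12 lists, which 24 of the 44 collagen genes were among, all of them through Homeostasis peaks. With Benjamini-Hochberg adjustment over the 4247 genes, 555 genes (13.1%) were lower in Damage and 0 (0%) higher, and at an unadjusted permutation p under 0.05 they numbered 1011 (23.8%) and 1 (0.0235%). Of collagen genes, 2 passed, Col23a1 and Col28a1 (adjusted p = 0.0383 for both, exact permutation test), against 3.42 from length as defined below. Both had a peak in all 6 Homeostasis lists and in no Damage list. Peak numbers were not scaled for list length, so a change of a single gene cannot be told apart from the shortness of the Damage lists. Col4a5, Col6a4, Col6a6 and Col19a1 had an unadjusted exact permutation p of 0.02 and an adjusted p of 0.0843. The call of Col23a1 and Col28a1 rests on the 0.005 floor being shared by enough genes. It was lost when any of the 3 Damage H2AK119ub libraries was left out (adjusted permutation p = 0.0582, 0.0582 and 0.0583 without replicate 1, 2 and 3). Without Homeostasis H2AK119ub replicate 1, 6 collagen genes passed, among 933 of the 4219 protein-coding genes then tested. The call was also lost with treatment permuted within replicate number as a block (adjusted permutation p = 0.239) and when genes without any peak were tested too (0.197). Over all alternatives run the adjusted permutation p of these 2 genes was 0.0182 to 0.239. The median difference was -0.667 peaks per library for the 24 collagen genes and -0.5 for all 4247 genes tested. Those 24 had passed a filter through the group where they were high, so the sign of their median was given by the filter.

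At homeostasis, 24 of the 44 collagen genes (54.5%) had a peak in at least 1 list, against 19.3% of protein-coding genes and 19.6 from length as defined below, and 20 had none in any list. A peak in 4 or more of the 6 lists was found for 8 collagen genes (6.7% of protein-coding genes) and in 5 or more for 6 (4.63%), with 8.47 and 6.12 from length. A BMI1 peak in 2 or more of 3 lists was found for 7 collagen genes (15.9%), against 7.34% of all protein-coding genes. An H2AK119ub peak in 2 or more of 3 lists was found for 13 (29.5%), against 9.63% of all protein-coding genes. Long genes hold more peaks, however, and collagen genes are long: their median length was 114 kb, from 7.11 kb (Col10a1) to 420 kb (Col25a1), against 17.2 kb for protein-coding genes. Protein-coding genes were therefore split into 10 classes of equal size by length, and each collagen gene was given the share of its own class. These shares add up to 9.08 genes for BMI1 and 11.5 for H2AK119ub, so 7 was below and 13 above the number that length gives. Both orders depended on how many lists were required. A peak in 3 of 3 lists was found for 6 collagen genes with BMI1 (4.45% of protein-coding genes, 5.90 from length) and for 3 with H2AK119ub (2.92%, 3.92 from length). A peak in any list was found for 15 with BMI1 (12.4%, 14.03 from length) and for 24 with H2AK119ub (17.8%, 18.4 from length). Of the 44, 23 were in the longest class (109 kb or more). In that class 26.1% of collagen genes and 33.7% of protein-coding genes had a recurring BMI1 peak, and 47.8% of collagen genes and 41.8% of protein-coding genes a recurring H2AK119ub peak. Among the 21 shorter collagen genes, Col6a4 (both antibodies) and Col15a1 (H2AK119ub) had a peak in 2 or more lists of an antibody. In these shorter classes 4.76% of collagen genes and 4.42% of protein-coding genes had a recurring BMI1 peak. For H2AK119ub the shares were 9.52% and 6.06%. The 13 was 3 without Homeostasis H2AK119ub replicate 2 or replicate 3, when a peak was required in both remaining lists.

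**Figure D2:**
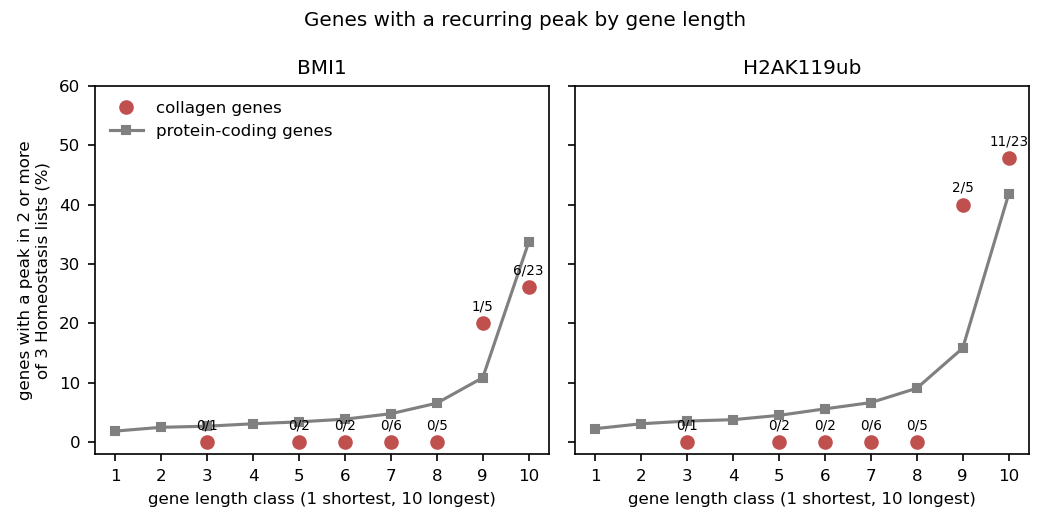
Percentage of genes with a peak in 2 or more of 3 Homeostasis lists (vertical axis) by gene length class (horizontal axis, 1 shortest to 10 longest) for BMI1 (left) and H2AK119ub (right); points are collagen genes with their number over the class size, and the line is all protein-coding genes. In the longest class 6 of 23 collagen genes had a recurring BMI1 peak and 11 of 23 a recurring H2AK119ub peak, either side of 33.7% and 41.8% of protein-coding genes.

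Each of the 3 longest Homeostasis lists held peaks in more collagen genes than each of the 3 shortest. Homeostasis H2AK119ub replicate 2, the longest list (13487 peaks), had a peak in each of the 24 collagen genes that had one in any H2AK119ub list, and in 93.5% of the 3904 such protein-coding genes. Homeostasis BMI1 replicate 2 (7513 peaks) had a peak in each of the 15 collagen genes with any BMI1 peak, and in 82.7% of the 2717 such protein-coding genes. Without H2AK119ub replicate 2, 15 collagen genes had a peak in any of the other 5 Homeostasis lists, against 15.7 from the length classes. The plot of genes per list shows that the 3 longest lists lay above the number that length gives (15 against 11.98, 24 against 17.6 and 13 against 11.9) and the 3 shortest below it (6 against 9.1, 7 against 7.93 and 3 against 4.27). The density was ordered likewise. Collagen spans held 3.739, 6.799 and 3.399 peaks per Mb in the 3 longest lists, against 2.591, 4.698 and 2.599 given by their length classes. In the others, BMI1 replicates 1 and 3 and H2AK119ub replicate 1, they held 1.19, 1.19 and 0.51 peaks per Mb, against 1.68, 1.40 and 0.655. The mean over the 6 lists was 2.80 ± 2.35 peaks per Mb for collagen genes and 2.27 ± 1.40 for their length classes (SD, n = 6). Both means come from the same lists, so these SDs do not give the spread of their difference. Collagen spans were above their length classes in the 3 longest lists and below them in the 3 shortest. The part of list length in the gene counts was not tested.

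**Figure D3:**
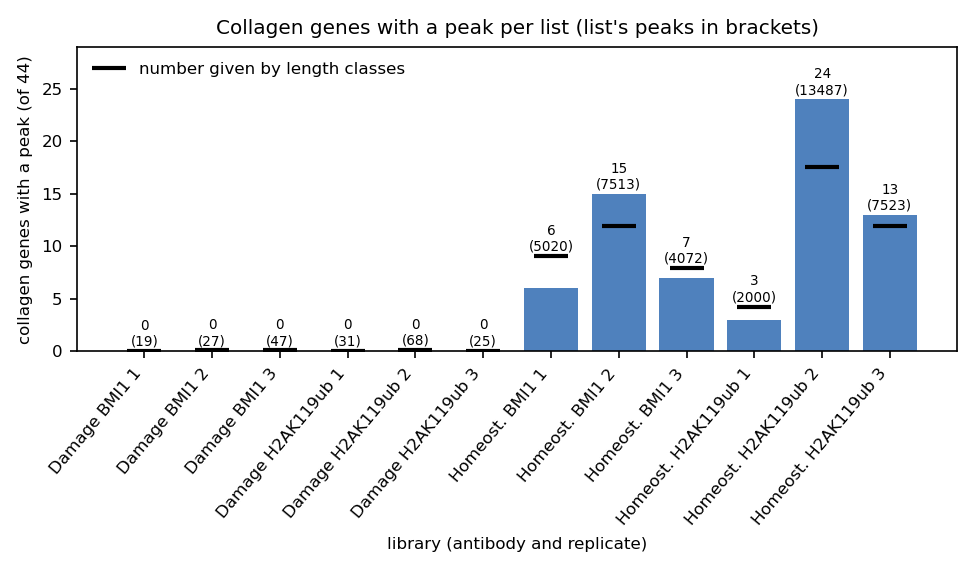
Number of collagen genes, of 44, with a peak in each library (bars, Damage left and Homeostasis right, with the peaks of the list in brackets) and the number that the shares of their length classes give (black marks). The Damage bars are all 0, and the Homeostasis bars range from 3 to 24.

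Among the 11 fibrillar collagens, which form the load-bearing fibrils, 7 had a peak in any Homeostasis list, against 4.39 from the length classes. Of these, Col2a1, Col3a1, Col5a3 and Col27a1 had theirs in the longest list alone, H2AK119ub replicate 2. The chains that dominate the cardiac interstitium had 1 peak among them. Col1a1 and Col1a2, the chains of type I collagen, had 0 peaks in all 12 lists. Col3a1, the chain of type III collagen, had 1 peak in a single list, Homeostasis H2AK119ub replicate 2. Col5a2, a type V chain that lies 24.6 kb from Col3a1 on chromosome 1, had 0 peaks, and so had Col11a2. Col1a1, Col1a2 and Col3a1 are short by the measure of this family, and protein-coding genes of their length classes would hold 0.30, 0.492 and 0.516 peaks over the 6 Homeostasis lists together. Col5a2 is longer, and its class gives 1.98. Col11a1, a minor fibrillar chain best known from cartilage, was the sole fibrillar gene with an H2AK119ub peak in 2 or more lists, against 2.54 from length. It had 0, 1 and 0 BMI1 peaks and 0, 1 and 1 H2AK119ub peaks in the Homeostasis libraries. Col24a1 had 1 BMI1 peak and 3 H2AK119ub peaks, each in a single list, and Col5a1, whose product limits fibril diameter, had 1 of each. No fibrillar collagen had a BMI1 peak in 2 or more lists, against 2.01 from the length classes.

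Type IV collagens form the network of basement membranes, and their 6 genes lie in 3 neighbouring pairs. Col4a1 and Col4a2, the chains present in nearly all basement membranes, overlap at their starts on chromosome 8 and had 0 peaks in every list. Their length classes give 1.77 and 2.09 peaks over the 6 Homeostasis lists. Col4a3 and Col4a4, overlapping on chromosome 1, had 4 and 1 peaks. Col4a5 and Col4a6, 1.27 kb apart on the X chromosome, had 5 and 6. Col4a5 (141475370 to 141689236), the gene mutated in human X-linked Alport syndrome, had 0 peaks in every Damage library, against 1, 1 and 1 BMI1 peaks and 0, 1 and 1 H2AK119ub peaks in the Homeostasis libraries. All 5 were at a single place, 194 kb downstream of its start (141669301 to 141669414). Col4a6 had 0, 2 and 0 BMI1 peaks and 0, 3 and 1 H2AK119ub peaks in the Homeostasis libraries, so its peaks were absent from the 3 shortest lists.

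Type VI collagen forms beaded filaments around cells. Col6a1 and Col6a2, its constitutive chains, had 0 peaks, with 0.308 and 0.397 from their length classes over the Homeostasis lists. Col6a3 had 2 peaks in 1 list, with 1.00 from its length class. The later-described chains of this type, Col6a4, Col6a5 and Col6a6, are neighbours on chromosome 9. Col6a4 (105990318 to 106096828) had 0 peaks in every Damage library, against 1, 1 and 1 BMI1 peaks and 0, 1 and 1 H2AK119ub peaks in the Homeostasis libraries. Col6a6 (105689417 to 105828246) had 0 in every Damage library, against 1, 1 and 1 BMI1 and 0, 2 and 1 H2AK119ub peaks in the Homeostasis libraries. In both, 5 of the 6 Homeostasis lists shared 1 region, 26.5 kb downstream of the start of Col6a4 and 8.57 kb downstream of that of Col6a6. Col6a5, between them, had 0 peaks, with 1.34 from its length class.

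Of the hexagonal network collagens, Col8a1 (chromosome 16, 57624256 to 57754737), made by vascular and stromal cells, had 0 peaks in every Damage library, against 0, 1 and 1 BMI1 and 0, 1 and 1 H2AK119ub peaks in the Homeostasis libraries. Col8a2 had 0, and so had Col10a1, a marker of hypertrophic cartilage.

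Fibril-associated collagens bind to the surface of fibrils, and 3 of 9 had a peak in any Homeostasis list, against 3.61 from the length classes. Col19a1 (chromosome 1, 24257683 to 24587922), a collagen of basement membrane zones, held more peaks than any other collagen gene. It had 0 in every Damage library, against 2, 3 and 1 BMI1 peaks (mean 2.0 ± 1.0) and 0, 4 and 3 H2AK119ub peaks (2.33 ± 2.08) in the Homeostasis libraries (SD, n = 3). Those 13 peaks compare with 4.85 given by its length class, and they fell in 5 regions, 1 of which was in 5 lists and 1 in 4. Col14a1, which regulates fibril growth in skin and tendon, had 0 in every Damage library, against 0, 1 and 0 BMI1 peaks and 1, 1 and 1 H2AK119ub peaks in the Homeostasis libraries. It had the sole collagen region found in all 3 H2AK119ub lists and in fewer than 3 BMI1 lists. Col22a1 had 2 peaks in 1 list. Col12a1 had 0, although its class gives 1.88.

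The multiplexin Col15a1 (chromosome 4, 47207655 to 47313167), whose product links basement membranes to the interstitium, had 0 peaks in every Damage library, against 0, 3 and 0 BMI1 peaks and 0, 3 and 3 H2AK119ub peaks in the Homeostasis libraries. These are the 3 longest lists. The 9 peaks compare with 1.33 from its length class, and they lay at 3 places, 34.6, 67.6 and 102 kb downstream of the start. At the first, the H2AK119ub replicate 3 peak lay beside those of the other lists without touching them. The related Col18a1, the source of endostatin, had 1 peak in 1 list.

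Of the 4 transmembrane collagens, Col23a1 (chromosome 11, 51289679 to 51583925) had 0 peaks in every Damage library, against 1, 2 and 1 BMI1 peaks (1.33 ± 0.577) and 1, 2 and 2 H2AK119ub peaks (1.67 ± 0.577) in the Homeostasis libraries (SD, n = 3). Its lowest Homeostasis value was above its highest Damage value for both antibodies. Col25a1, the longest collagen gene, had 0 peaks in every list, with 6.12 from its length class over the 6 Homeostasis lists. Col13a1, a collagen of the neuromuscular junction, had 1 peak and Col17a1, of the skin hemidesmosome, 0. The anchoring fibril gene Col7a1 also had 0.

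Col28a1 (chromosome 6, 7997100 to 8193709), a collagen with von Willebrand factor domains, had 0 peaks in every Damage library, against 1, 1 and 1 BMI1 peaks and 1, 2 and 3 H2AK119ub peaks in the Homeostasis libraries. With Col23a1 it made up the 2 collagen genes with a peak in all 6 Homeostasis lists, against 2.55% of protein-coding genes and 3.45 from the length classes. Groups of both treatments did not overlap for BMI1 in 6 collagen genes, Col4a5, Col6a4, Col6a6, Col19a1, Col23a1 and Col28a1, against a background of 4.42% of protein-coding genes. For H2AK119ub they did not overlap in 3, Col14a1, Col23a1 and Col28a1, against 2.91%. As their Damage values were all 0, these are the genes with a peak in 3 of 3 Homeostasis lists, for which length gives 5.90 (BMI1) and 3.92 (H2AK119ub). Col26a1 had 0, 2 and 0 BMI1 peaks and 0, 2 and 1 H2AK119ub peaks in the Homeostasis libraries.

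The 99 Homeostasis peaks merged into 44 regions, of which 42 lay in a gene body and 2 in a flank. None overlapped an annotated tRNA or ribosomal RNA gene, and 3, all in Col15a1, overlapped a long non-coding RNA gene. Of the 44 regions, 19 (43.2%) had a peak of both antibodies, 23 of H2AK119ub alone and 2 of BMI1 alone. Of the 21 regions with BMI1, 90.5% therefore had H2AK119ub too, and of the 42 with H2AK119ub, 45.2% had BMI1. The regions with BMI1 alone, 1 in Col19a1 and 1 in Col26a1, were both from BMI1 replicate 2. Across all protein-coding genes 42.1% of 6926 regions had both antibodies and 13.5% BMI1 alone, and the shares were 75.7% of BMI1 regions and 48.7% of H2AK119ub regions. A single list held 22 of the 44 regions (50%), against 51.2% in protein-coding genes. H2AK119ub replicate 2 supplied 17 of those 22, and 62.1% of the 3545 in protein-coding genes. All 7 collagen genes with a BMI1 peak in 2 or more lists also had H2AK119ub in 2 or more. So did 1431 of the 1607 protein-coding genes with a BMI1 peak in 2 or more lists. Genes with both made up 6.54% of all protein-coding genes, and the length classes give 8.25 for the collagen genes. A further 6 (Col4a3, Col4a6, Col11a1, Col14a1, Col15a1 and Col26a1) had H2AK119ub in 2 or more lists and BMI1 in 1. That list was BMI1 replicate 2, the longest BMI1 list, for each of them. Recurring H2AK119ub without recurring BMI1 was found for 3.09% of protein-coding genes, and the length classes give 3.24 collagen genes. With 3 libraries against 3, an exact two-sided p cannot go below 0.1, so no difference between antibodies was tested for a gene.

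Most regions lay far from gene starts, which were taken from a RefSeq table of GRCm38.p6 that holds 35 of the 44 collagen genes. Region centres, 35 of which were in such genes, lay 1.51 to 285 kb from the nearest start of their gene, with a median of 84.9 kb. The 22 regions found in 2 or more lists included 18 with such a distance, which was 8.57 kb (Col6a6) to 285 kb (Col4a6) with a median of 93.0 kb. Within 5 kb of a start there were 3, in Col3a1, Col5a3 and Col6a3, each found in H2AK119ub replicate 2 alone. The window of 250 bases before to 50 bases after the start held a peak in 0 of 35 collagen genes, and in 17 of 17492 protein-coding genes (0.0972%). Within 5 kb, 3 of 35 collagen genes (8.57%) had a peak at homeostasis, against 5.23% of protein-coding genes. The regions found in all 6 lists were 166 kb downstream of the start of Col23a1 (51455615 to 51455833) and 182 kb downstream of that of Col28a1 (8010857 to 8011048). Whether regions were exonic or intronic was not determined, since the annotation used gives gene boundaries only.

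**Figure D4:**
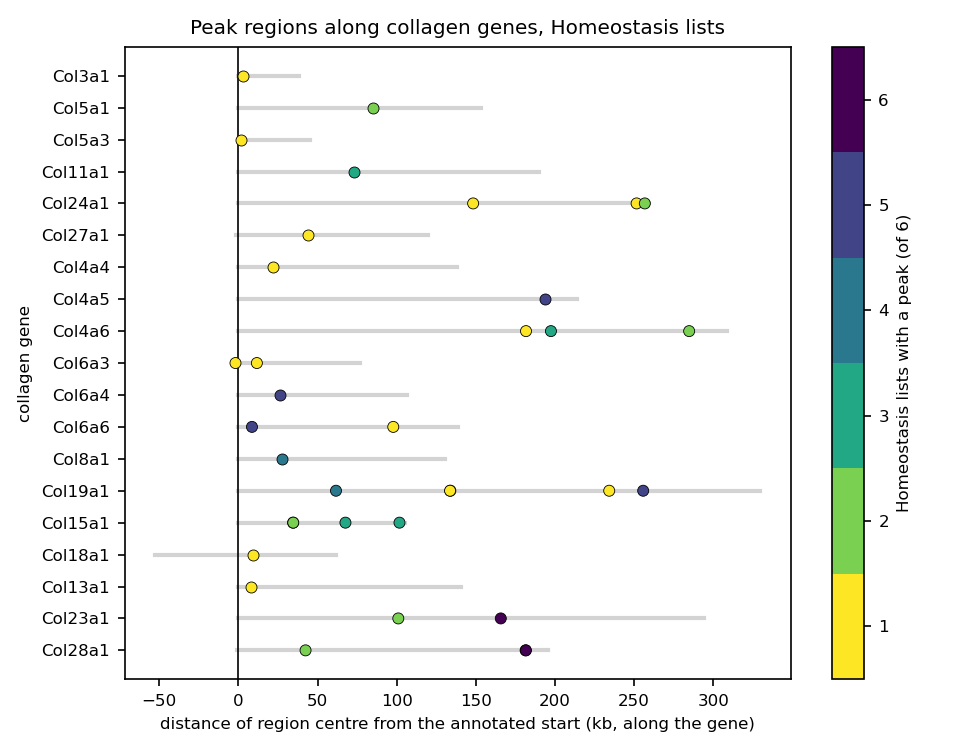
Distance of each region's centre from the nearest annotated start of its gene, in kb along the direction of transcription (horizontal axis), for the 19 collagen genes with a start in the table and a region; grey bars span the gene, and colour gives the number of the 6 Homeostasis lists with a peak. Regions found in 5 or 6 lists lay 8.57 to 256 kb downstream of the start.

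The 250 bases before the start are shown for the 2 collagen genes with a peak in all 6 Homeostasis lists and for Col1a2, which had none, to show how unlike these starts are in CpG, the dinucleotide linked to Polycomb binding. Sequences are from RefSeq (GRCm38.p6), 5′ to 3′ on the gene's strand, and capitals mark each CG.
Col23a1: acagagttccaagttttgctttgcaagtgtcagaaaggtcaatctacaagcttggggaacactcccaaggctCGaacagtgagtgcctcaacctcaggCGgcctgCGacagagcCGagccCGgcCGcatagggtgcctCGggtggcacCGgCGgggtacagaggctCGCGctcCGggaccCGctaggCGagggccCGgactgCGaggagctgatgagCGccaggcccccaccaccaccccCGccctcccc
Col28a1: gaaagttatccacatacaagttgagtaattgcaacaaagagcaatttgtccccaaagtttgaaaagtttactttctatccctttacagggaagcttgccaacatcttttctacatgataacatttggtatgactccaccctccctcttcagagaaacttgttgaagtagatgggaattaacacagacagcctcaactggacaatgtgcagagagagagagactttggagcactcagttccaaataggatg
Col1a2: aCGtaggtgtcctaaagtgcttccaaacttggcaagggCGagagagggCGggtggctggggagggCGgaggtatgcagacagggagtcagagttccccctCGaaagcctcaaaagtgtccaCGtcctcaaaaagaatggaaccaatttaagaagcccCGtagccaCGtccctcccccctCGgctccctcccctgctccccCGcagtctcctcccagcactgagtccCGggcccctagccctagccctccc
They lie at chr11:51289670-51289919 (plus strand), chr6:8192618-8192867 (minus strand) and chr6:4505368-4505617 (plus strand).
Col23a1 had 18 CG in its 250 bases, Col28a1 had 0 and Col1a2 had 11. CG reads the same on both strands. Of the 2 genes with a peak in every Homeostasis list, Col23a1 thus had a start with CG and Col28a1 one without. Relative to these starts, the outer boundary of the gene as counted lies at -0.241 kb for Col23a1 and -1.09 kb for Col28a1. Their windows lie almost wholly (Col23a1) or wholly (Col28a1) inside the gene, so they do not describe the sequence before that boundary. Taking for each gene its start with the most CG, the median was 10 CG in the 7 collagen genes with a peak in 4 or more lists, 9 in the 12 with a peak in 1 to 3 lists and 10 in the 16 with none, against 11 in 17492 protein-coding genes. At least 1 CG was present in 91.4% of the 35 collagen genes and in 93% of protein-coding genes. The CpG-rich starts of Col4a1 and Col4a2 (31 and 26 CG) had no peak within 5 kb. That was the usual state, as 5.23% of protein-coding genes had a peak there at homeostasis.

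Genes that act on collagen were counted in the same way, from 4 lists with 55 members, none of which had a peak in a Damage list. Of the 25 enzymes and chaperones of collagen synthesis, 3 had a recurring BMI1 peak and 4 a recurring H2AK119ub peak in the Homeostasis lists, with 2.77 and 3.61 from the length classes. Tll2, a protease of the tolloid family, had a peak in all 6 Homeostasis lists and Plod2, a lysyl hydroxylase, in 5. Pcolce2, an enhancer of procollagen cleavage, had a peak in 4 and P4ha3, a prolyl hydroxylase subunit, in 3. Of the 10 collagen receptors, 2 had a recurring BMI1 peak and 1 a recurring H2AK119ub peak, with 1.30 and 1.74 from the length classes. Mrc2, which takes up collagen fragments, had a peak in 5 lists and Ddr2, a receptor tyrosine kinase, in 3, while the integrin genes Itga2 and Itga11 had 1 in 2 lists each. None of the 7 collagen-degrading proteases had a peak in any list, with 0.315 recurring BMI1 and 0.422 recurring H2AK119ub genes from the length classes. Of the 13 proteins of the fibril surface and its surroundings, 3 had a recurring BMI1 peak, with 0.97 from the length classes. The same 3 had a recurring H2AK119ub peak, with 1.29 from the length classes. They were Dcn and Bgn, small proteoglycans that coat fibrils, with a peak in 5 lists each, and Matn2, a matrilin, in 4. Dcn and Bgn had 1, 1 and 1 BMI1 peaks and 0, 1 and 1 H2AK119ub peaks in the Homeostasis libraries. Over all 55, 8 genes had recurring BMI1 and 8 recurring H2AK119ub peaks, with 5.36 and 7.07 from the length classes.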

How the data were processed

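Peak lists of 12 ChIP-seq libraries were used; the 2 Input libraries were not analysed here. Per the submitters' processing notes, the authors used Bowtie2 (no version) and HOMER 4.8 on GRCm38; for peak-calling settings and the use of Input, the sources used here name nothing. The authors deposited a list per library, in which the deposited score is always 1 and cannot order peaks. At least 92.6% of each list were 101 bp wide. Depth is unknown; intervals (exact, 95%) and limits cover counting error only.

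Peaks were counted per protein-coding gene (RefSeq, GRCm38; body and 5 kb either side, overlap of 1 bp or more). Regions are peaks of all lists merged where they overlap. The number given by length classes sums, over members, the share (or peaks per Mb) in the same of 10 classes. The treatment test was an exact permutation test over libraries with Benjamini-Hochberg adjustment over all genes tested, at 0.05, checked on simulated data. There, changed genes held more peaks per Homeostasis library on average than any collagen gene. Unchanged genes had equal means in both treatments, so the difference in list length was not simulated. No p was computed over the members. Genes named were those with a peak in 2 or more Homeostasis lists of an antibody, those with 4 or more lists in full, Col1a1, Col1a2, Col3a1, Col4a1, Col4a2, and up to 4 genes per partner list; others were named after their values were seen. Members, lists and tests were chosen with earlier results of these data known. Alternatives were the gene window, peak centre, merging within 1 kb, libraries required, length classes, scale, filter, autosomes, replicate block and leaving out each library. Python 3.11.15, numpy 2.4.6, pandas 2.3.3, scipy 1.17.1 and matplotlib 3.10.9 were used.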

Additional observations from a re-analysis of the deposited data

How the results depend on the processing

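The difference in collagen genes per library stayed negative under every alternative run, but the order of collagen genes and length classes did not: it turned for BMI1 with 3 of 3 libraries (6 against 5.90) and with 1 or more (15 against 14.03), and for H2AK119ub with 3 of 3 (3 against 3.92), while 24 with 1 or more stayed above 18.4. With 5 and 20 length classes, length gives 7.04 and 8.72 for BMI1 (7 genes) and 9.17 and 11.1 for H2AK119ub (13 genes). Without a library, the BMI1 count was 6 to 7 when both remaining lists were required and 7 to 15 when 1 was enough, and the H2AK119ub count 3 to 13 and 13 to 24. The count with both antibodies (7) was 2 to 7 when a library was left out. The number of all genes lower in Damage (555) was 0 without a filter on genes lacking peaks (1011 lower and 1 higher at an unadjusted exact permutation p under 0.05), 1007 with a peak required in 3 or more lists (1008 calls, 1 of them higher), and 0 to 933 when a library was left out; fewer genes tested or fewer arrangements change the adjusted p by construction. With the replicate block, treatment permuted within replicate number, it was 0 (556 unadjusted, smallest exact permutation p 0.0312 over 64 arrangements). The correlation of deviations between same-numbered Damage and Homeostasis libraries was -0.0298 to 0.0316 over 4247 genes. Each Damage list had a peak in only 5 to 21 protein-coding genes, so this correlation could not show whether libraries were paired. The mean difference in collagen genes with a peak per library, -11.3 (Damage minus Homeostasis), was -13.9 to -8.67 when a library was left out, and the 2.80 peaks per Mb were 2.00 to 3.57. No collagen gene gained a Damage peak under any window, with autosomes only or with merged peaks. The short Damage lists limit any statement on single genes. The alternatives for the count with both antibodies and for the partner genes were chosen after seeing the data.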
